A study of Mus musculus with 18 samples.

Results

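Regulatory T (Treg) cells that express Foxp3 carrying the I363V substitution were compared with wild-type (WT) Treg cells across 18193 genes. The comparison used 10 of the 18 arrays in the series, chosen by their titles: the 3 I363V arrays and all 7 WT Treg arrays. The I363V cells were CD4+ hCD2+ GFP- cells of heterozygous B6;129 mice whose I363V allele of Foxp3 carried the hCD2 reporter and whose other allele was wild-type with the GFP reporter, so WT Treg cells were also present in these mice. Of the 7 WT arrays, 2 held GFP+ cells and 2 held hCD2+ cells of mice with wild-type Foxp3 on both alleles, and 3 held GFP+ cells of mice whose hCD2 allele carried A384T. Conventional T (Tconv) cells, CD4+ cells with neither reporter from mice with wild-type Foxp3 on both alleles (2 arrays), and hCD2+ Treg cells with A384T or R397W in Foxp3 (3 arrays each), from mice heterozygous in the same way, were used for reference. All cells were sorted from lymph nodes and spleen and were not cultured or treated. WT cells of mice that carried I363V were not analysed here, so an effect of the host mouse and an effect of the substitution inside the cell cannot be told apart.

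Foxp3 is the forkhead transcription factor of Treg cells, the CD4 T cells that restrain immune responses to self. The gene lies on the X chromosome, so each cell of a heterozygous female uses either the mutant or the wild-type allele. I363V, A384T and R397W are substitutions in the DNA-binding forkhead domain, and mutations of human FOXP3 cause the autoimmune disease IPEX. Treg cells carry a core set of genes such as Il2ra and Ctla4, and cells that have seen antigen add an effector set of receptors, suppressor molecules and homing receptors that takes them into tissues.

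Every level below is a log2 value in which 0 is the mean of both Tconv arrays, because the deposited values of each gene were shifted to it. Differences between groups are unaffected, but the brightness of a gene, and so whether a transcript is absent, cannot be read. The medians of the 18 arrays lay between -0.063 and 0.016, and the number of arrays limits the precision. The labels speak of duplicates and triplicates without saying that each is a separate animal, so p-values measure the spread between these samples, which may be technical. The GFP+ and hCD2+ arrays of WT mice are titled as from mice of the same genotype and may share animals. The fit takes all 7 WT arrays as independent, so p-values may be too small. In sorted bulk cells, fewer cells of a type and less RNA per cell cannot be told apart. I363V replicate 2 stood apart from the other I363V arrays in immediate early genes, so the main counts are given with and without it.

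The cells labelled I363V had the measured Treg markers above the Tconv level. They were sorted by a reporter on the Foxp3 allele, so a high Foxp3 level follows from the sort. Foxp3 was at 6.95, 7.11 and 6.51 on the 3 I363V arrays, and from 7.06 to 7.59, median 7.42, on the 7 WT arrays. Replicate 2 lay inside the WT range and the others under it. The difference was -0.52 ± 0.16 (log2, SE; 95% interval -0.85 to -0.19, limma adjusted p = 0.102 over all genes) and was not called. A substitution of 1 amino acid is not visible to the probes, so this level does not check the allele. All 7 measured Treg markers were called higher in I363V cells than in Tconv cells, as they were in WT cells; over all genes, 2.79% were called between I363V and Tconv cells and 1.61% were called higher. Their mean level was 3.66 to 3.76 on the I363V arrays and 4.17 to 4.43 on the WT arrays, and 3 of the 7 were called lower in I363V than in WT cells: Tnfrsf18, the receptor GITR (-0.95), Ikzf2, the transcription factor Helios (-0.88), and Il2ra, the IL-2 receptor alpha chain CD25 (-0.70). Without I363V replicate 2 the call of Tnfrsf18 was lost (limma adjusted p = 0.0959) and 2 of the 7 were lower, and with only the 2 hCD2 WT arrays 1 of the 7 was. None of 9 CD4 T cell markers was called in the fit by limma, at adjusted p over all genes, where 2 had an unadjusted p under 0.05, and their changes ran from -0.48 to 0.09.

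Penk, Gpr15, Lypd6b and Dsp had been picked as marks of I363V cells from earlier results of these data. For each of them the 3 I363V arrays lay wholly outside the range of the 7 WT arrays. Their changes are not particular to I363V cells. Against WT cells, R397W cells changed by -2.55, -2.93, 2.81 and 1.78 in these genes, in this order, each called by limma. A384T cells were called for Gpr15 (-1.59) and Lypd6b (1.05) and not for Penk (-0.88) or Dsp (0.88). Promoter sequences are shown for Gpr15 and Dsp, and for Fgl2, the gene with the second largest fall, since among the 16 of the 24 most changed genes that the reference table holds it was the only gene whose promoter window held a searched motif. Each sequence is the 250 bases before the gene's start on its own strand (RefSeq, GRCm38.p6), with an AP-1 motif in capitals. They lie at chr16:58718873-58719122 (minus strand, Gpr15), chr13:38151044-38151293 (plus strand, Dsp) and chr5:21372423-21372672 (plus strand, Fgl2).
Gpr15: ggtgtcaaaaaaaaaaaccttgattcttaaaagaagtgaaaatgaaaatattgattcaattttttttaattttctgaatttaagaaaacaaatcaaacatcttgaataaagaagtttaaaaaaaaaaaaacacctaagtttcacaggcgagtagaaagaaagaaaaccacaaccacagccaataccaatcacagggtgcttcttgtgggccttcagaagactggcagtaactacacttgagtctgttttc
Dsp: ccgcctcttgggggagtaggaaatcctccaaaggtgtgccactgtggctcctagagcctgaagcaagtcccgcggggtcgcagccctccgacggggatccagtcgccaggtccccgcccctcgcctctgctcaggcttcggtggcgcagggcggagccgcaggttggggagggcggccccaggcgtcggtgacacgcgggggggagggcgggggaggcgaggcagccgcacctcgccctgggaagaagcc
Fgl2: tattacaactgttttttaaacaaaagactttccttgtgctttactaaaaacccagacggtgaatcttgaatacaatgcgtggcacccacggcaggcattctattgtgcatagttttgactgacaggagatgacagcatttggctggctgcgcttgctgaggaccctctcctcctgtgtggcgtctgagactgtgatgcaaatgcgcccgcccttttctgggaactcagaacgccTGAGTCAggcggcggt
The forkhead letters TGTTTAC, or GTAAACA on the other strand, stood in 0 of 18 windows of the 16 genes, and in 3.17% of all 32851 windows of this length. The AP-1 letters TGAGTCA, or TGACTCA on the other strand, stood in 1 of the 18 windows and in 4.46% of all windows. A match is a description of these letters and not a binding site. Penk and Lypd6b were not analysed here for sequence.

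Penk encodes proenkephalin, the precursor of enkephalin opioid peptides, and is a gene of WT Treg cells. Its level was 1.07, 0.79 and 0.34 on the I363V arrays and 2.96 to 3.91, median 3.43, on the WT arrays. All I363V arrays lay more than 1 log2 unit under the lowest WT array. The change was -2.65 ± 0.22 (limma adjusted p = 2.31e-06), a level 6.29-fold higher in WT cells. The I363V level itself was not called different from Tconv cells (0.73 ± 0.29, unadjusted 95% interval 0.12 to 1.35, limma adjusted p = 0.269). Every I363V array still lay above both Tconv arrays, so a fall to the Tconv level is not shown.

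Gpr15 encodes a chemoattractant receptor that guides T cells to the large intestine. Levels were 1.18, 1.03 and 0.50 in I363V cells and 2.60 to 3.97, median 3.38, in WT cells, again without overlap. The change was -2.40 ± 0.26 (limma adjusted p = 4.11e-05), or 5.28-fold higher in WT cells. As with Penk, the I363V level was not called different from Tconv cells (0.90 ± 0.35, unadjusted 95% interval 0.17 to 1.64, limma adjusted p = 0.252). Again every I363V array lay above both Tconv arrays.

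Lypd6b encodes a membrane-anchored protein of the Ly6 and uPAR domain family. WT Treg cells had it far under Tconv cells, at -4.52 to -3.68 with a median of -4.10, and I363V cells had it at -1.74, -1.39 and -1.71. The I363V arrays were thus higher than every WT array and still lower than Tconv cells (-1.61 ± 0.23, limma adjusted p = 0.000354). Against WT cells the change was 2.46 ± 0.17 (adjusted p = 5.98e-07), a 5.48-fold higher level.

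Dsp encodes desmoplakin, which ties the desmosomes of epithelial cells to intermediate filaments. Its level was 3.19, 4.24 and 3.40 on the I363V arrays, with replicate 2 highest, and 0.92 to 1.82, median 1.54, on the WT arrays. The change was 2.17 ± 0.25 (limma adjusted p = 5.9e-05), or 4.51-fold higher. Of 3 probe sets for Dsp, all moved the same way and 2 were called. Each of these 4 genes was called in all 10 fits that left out 1 I363V or WT array, and also when the WT group was cut to its 2 hCD2 arrays.

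**Figure D1:**
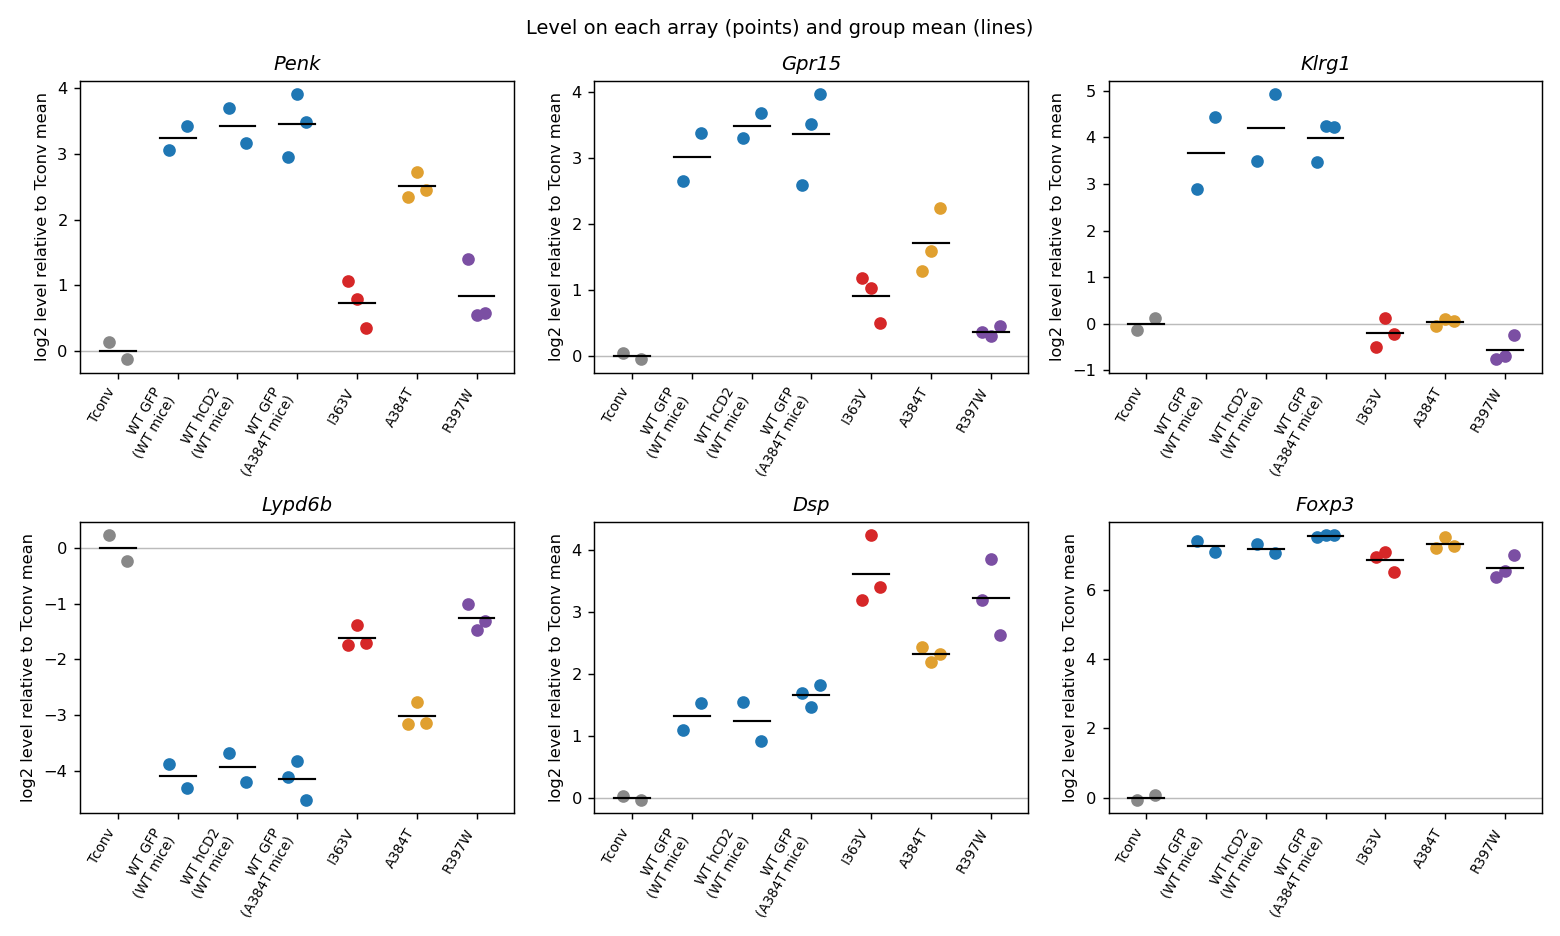
Level of Penk, Gpr15, Klrg1, Lypd6b, Dsp and Foxp3 (y axis, log2 relative to the Tconv mean) on every array, by group (x axis), with horizontal bars at group means. The I363V arrays do not overlap the 7 WT arrays for Penk, Gpr15, Klrg1, Lypd6b and Dsp. For Foxp3, I363V replicate 2 (7.11) lies within the WT range of 7.06 to 7.59.

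Over all genes, more were lower than higher in I363V cells. The limma fit called 551 of 18193 genes (3.03%) at an adjusted p under 0.05: 125 were higher in I363V cells (0.687%) and 426 lower (2.34%). A change of at least 2-fold was seen for 34 of the higher and 153 of the lower genes, and the median change over all genes was 0.00. The I363V and WT arrays did not overlap for 111 of the 125 and 405 of the 426, against 461 genes (2.53%) wholly above and 743 (4.08%) wholly below, or 1204 (6.62%), among all genes tested. In every 1 of the 10 fits that left out an I363V or WT array, 40 of the higher and 191 of the lower genes were called. Without I363V replicate 2, 59 genes were higher and 295 lower. Without replicate 1 or 3 the higher genes numbered 105 or 102 and the lower genes 272 or 278. With only the 2 WT arrays that share the hCD2 reporter, 22 were higher and 115 lower, and 22 and 111 of these were among the genes called with all 7.

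**Figure D2:**
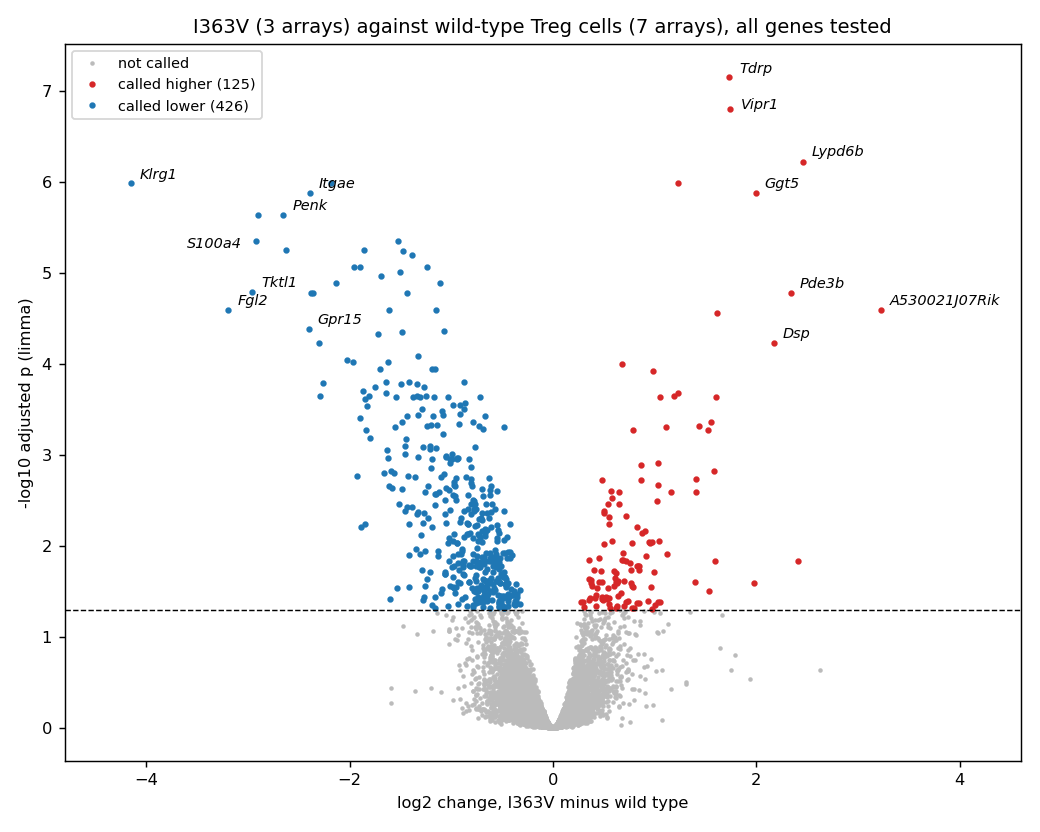
Log2 change of each of 18193 genes, I363V minus WT (x axis), against -log10 of the limma adjusted p (y axis); red points are the 125 genes called higher, blue points the 426 called lower, and the dashed line is the threshold of 0.05. The lower genes outnumber the higher ones and Klrg1, at -4.15, is the farthest from 0.

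The largest fall was in Klrg1. This gene, for an inhibitory receptor of late effector cells, was at -0.50, 0.12 and -0.22 on the I363V arrays and 2.89 to 4.92, median 4.21, on the WT arrays. The I363V arrays sat near the Tconv mean, and the change was -4.15 ± 0.31 (limma adjusted p = 1.02e-06), a 17.8-fold higher level in WT cells. Fgl2, a secreted suppressor of the fibrinogen family whose promoter is shown above, was at -0.54, -0.52 and -0.95 against 1.92 to 3.25, median 2.64. Its change was -3.19 ± 0.34 (adjusted p = 2.55e-05), or 9.13-fold.

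The small calcium-binding proteins S100a4 and S100a6 changed together. S100a4 was at -1.17, -1.17 and -1.06 in I363V cells and 1.03 to 2.25, median 2.07, in WT cells. S100a6 was at -0.83, -0.83 and -0.82 against 1.41 to 2.58, median 2.30. Their changes were -2.92 ± 0.25 and -2.90 ± 0.24 (limma adjusted p = 4.47e-06 and 2.31e-06), and the I363V arrays lay close together.

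Itgae, the alpha E integrin CD103 that binds E-cadherin on epithelium, stayed above Tconv cells in I363V cells but far under WT cells. It was at 2.41, 2.53 and 2.19 against 4.13 to 5.17, median 4.85. The change was -2.39 ± 0.19 (limma adjusted p = 1.32e-06). Gcnt1, which makes the core 2 branch of O-glycans on selectin ligands, was at -0.41, -0.17 and -0.23 against 1.65 to 3.0, median 2.58 (change -2.63 ± 0.24, adjusted p = 5.52e-06). Tktl1, a transketolase-like enzyme, was at -0.60, -0.44 and 0.01 against 1.73 to 3.37, median 2.60 (change -2.96 ± 0.30, adjusted p = 1.62e-05). The I363V arrays of these genes were all under the lowest WT array. The other large falls were Ttc39c (-2.38), Tmbim1 (-2.36) and Myo1f, an unconventional myosin of blood cells (-2.30), each with no overlap between the groups.

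The largest rise was in A530021J07Rik, a RIKEN gene of unnamed function, at 0.80, 0.75 and 0.90 on the I363V arrays and -3.03 to -1.63, median -2.47, on the WT arrays. The change was 3.22 ± 0.34 (limma adjusted p = 2.55e-05), or 9.34-fold, and its 2 probe sets were both called. Pde3b, a phosphodiesterase that breaks down cyclic AMP, was at -1.69, -1.02 and -1.45 against -4.03 to -2.99, median -3.78. Its change was 2.34 ± 0.24 (adjusted p = 1.66e-05). Both genes stood under the Tconv mean on every WT array, and the I363V arrays were closer to it.

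Ggt5, a gamma-glutamyl transferase, was at -0.65, -0.74 and -0.52 against -2.89 to -2.48 (change 1.99 ± 0.16, limma adjusted p = 1.32e-06). Tdrp had the smallest adjusted p of all genes (6.94e-08), with a change of 1.73 ± 0.10 and levels of -0.43, -0.48 and -0.78 against -2.42 to -2.07. Vipr1, a receptor for vasoactive intestinal peptide, had a change of 1.74 ± 0.11 (adjusted p = 1.57e-07), but only 1 of its 2 probe sets moved that way. Sox4, an HMG-box transcription factor, was at 0.94, 1.06 and 0.41 against -1.07 to -0.48 (change 1.62 ± 0.17, adjusted p = 2.76e-05), and all 8 of its probe sets moved the same way. Ggt5, Tdrp, Vipr1 and Sox4 all had I363V arrays above every WT array.

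The last of the 12 highest changes among called genes whose groups did not overlap were Mettl23 (1.60), Rgcc (1.60), Hexim1, an inhibitor of the elongation factor P-TEFb (1.59), and Cnga1, a cyclic nucleotide-gated channel subunit (1.55). BC018473 (2.41, limma adjusted p = 0.0144) and St6galnac2 (1.98, adjusted p = 0.0254), next to Mettl23 in the RefSeq gene order, were called with larger changes but with I363V replicate 2 inside the WT range. Mettl23, a methyltransferase-like protein, moved this way on 1 of its 3 probe sets. Rgcc was at -1.46, 0.35 and -1.35 against -3.06 to -1.77. It was highest on replicate 2 and, without that array, its change of 1.01 was not called (limma adjusted p = 0.114). The other 23 of these 24 genes were called in each of the 10 fits with an array left out.

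**Figure D3:**
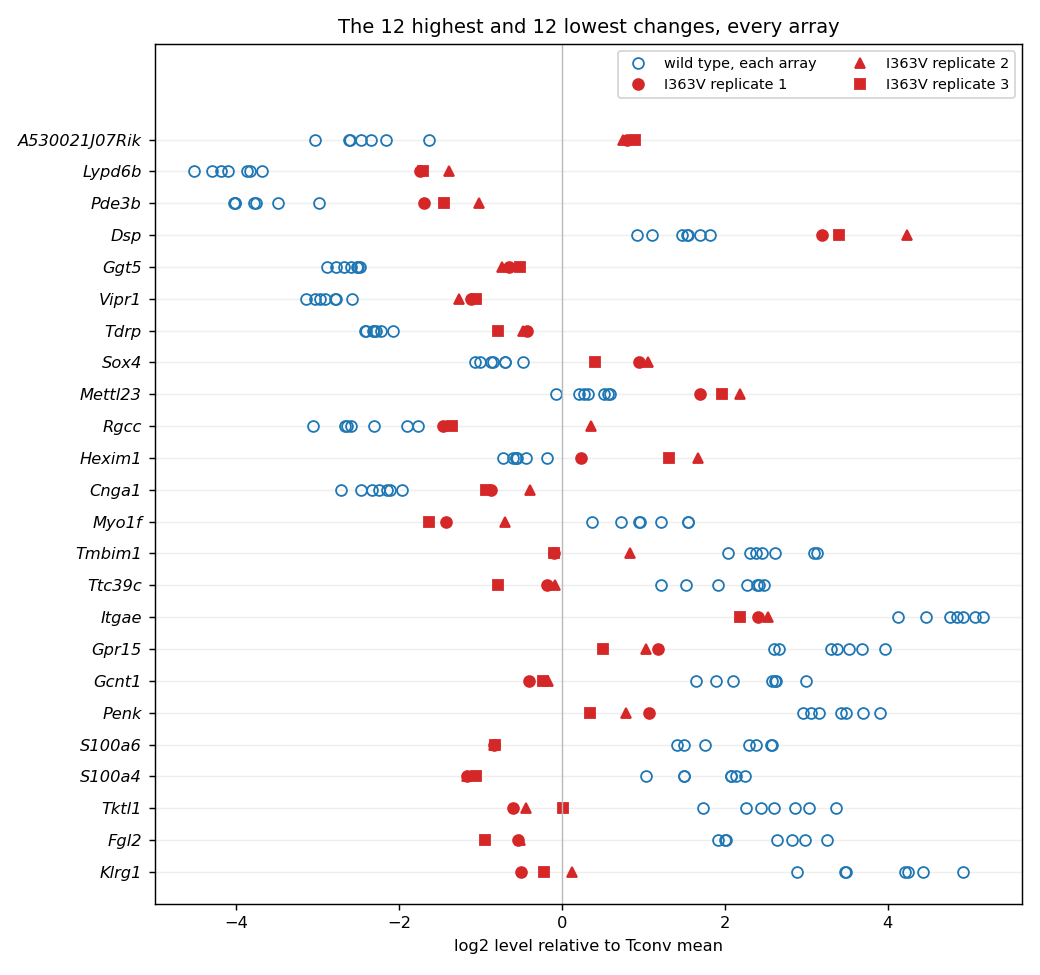
Level (x axis, log2 relative to the Tconv mean) of the 12 genes with the highest and the 12 with the lowest change among those called with no overlap of the groups (rows), on each WT array (open circles) and each I363V replicate (filled red symbols). Replicates 1, 2 and 3 of I363V lie on the same side of the WT arrays in every row, as the choice of rows requires. Among the rising genes, Rgcc, Dsp, Lypd6b, Pde3b, Sox4, Mettl23, Hexim1 and Cnga1 are highest on replicate 2.

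Of 26 measured Treg core genes, listed as higher in Treg cells, 18 were called lower and 0 higher than in WT cells (2.34% and 0.687% of all genes), and the median change was -1.01 (0.00 over all genes). This list and the suppressor list below hold the marker Penk, and the homing list below holds Gpr15. All lists were chosen with earlier results of these data known, so their directions are not independent evidence. All 26 were called higher in WT cells than in Tconv cells, and 22 were called so in I363V cells (1.61% of all genes). The share of all genes called between WT and Tconv cells was not worked out. That comparison also has more arrays (7 WT, 3 I363V), so counts from both are not on equal terms. The list median was 2.45, 2.29 and 2.29 on the I363V arrays and 3.23 to 3.79 on the WT arrays. Beyond Klrg1, Penk and Itgae, the largest fall was in Ebi3, a subunit shared by IL-27 and IL-35, at 1.2, 1.2 and 0.87 against 2.73 to 3.68 (change -2.13 ± 0.21, limma adjusted p = 1.27e-05). Without I363V replicate 2, 15 of the 26 were called lower.

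Of 19 measured genes listed as lower in Treg cells than in Tconv cells, 10 were called higher and 0 lower in I363V cells than in WT cells, with a median change of 0.65. The shares over all genes were 0.687% higher and 2.34% lower. Against Tconv cells, 11 were called lower and 1 higher in I363V cells (1.18% and 1.61% of all genes). In WT cells 14 were called lower and 1 higher, from more arrays and without a share over all genes. The list was partly drawn from earlier results of these samples, so its direction is not independent evidence. Il2, the T cell growth factor that Foxp3-bearing cells do not make, was at -0.44, -0.34 and -0.23 against -0.95 to -0.66 (change 0.48 ± 0.08, limma adjusted p = 0.00187). Themis, a thymocyte signalling protein, was at -1.13, -0.33 and -0.43 against -2.02 to -1.38 (change 0.95 ± 0.19, adjusted p = 0.00891). Tgfbr3, a co-receptor for TGF-beta, was at -1.44, -1.46 and -1.43 against -2.68 to -2.22 (change 0.98 ± 0.12, adjusted p = 0.00012), and Atp8b4 rose by 1.19. Without replicate 2, 6 of the 19 were called higher.

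Effector and tissue Treg genes had the lowest median change of the lists, -1.41 over 26 measured genes. Of these 17 were called lower and 0 higher (2.34% and 0.687% of all genes), and 16 of the 26 were called lower without replicate 2. The list median was -0.11, 0.08 and -0.11 on the I363V arrays and 1.08 to 1.97 on the WT arrays. Against Tconv cells, 4 of the 26 were called higher and 2 lower in I363V cells (1.61% and 1.18% of all genes). In WT cells 20 were called higher and 1 lower. The WT count rests on more arrays and has no share over all genes beside it, so the counts are not on equal terms. The list holds 12 measured transcription factors, a grouping made after their values were seen, of which 5 were called lower and 0 higher. Prdm1, the factor Blimp-1, was at -0.33, 0.07 and -0.86 against 0.64 to 1.28 (change -1.33 ± 0.17, limma adjusted p = 0.000222). Tbx21, the factor T-bet, changed by -0.97, Maf by -1.16, Rora by -1.60 and Batf by -0.77. Prdm1 was called in all 10 fits with an array left out, Tbx21 in 9, Maf and Batf in 4 and Rora in 3. Gata3, at -0.68, was not called.

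Of 19 homing and chemoattractant receptors, 9 were called lower and 0 higher (2.34% and 0.687% of all genes), with a median change of -0.60, and the same number was called lower without replicate 2. After Gpr15, the largest changes were in Cxcr3, the receptor of interferon-induced chemokines (-1.75 ± 0.22, limma adjusted p = 0.000177), Ccr2, the receptor of monocyte chemoattractants (-1.62 ± 0.25, adjusted p = 0.00108) and Cxcr5, which leads cells into follicles (-1.61 ± 0.17, adjusted p = 2.55e-05). Cxcr3 was at -1.17, -1.01 and -1.36 against -0.00 to 1.08, so every I363V array lay under the Tconv mean. Cxcr5 was at -0.40, -0.40 and -0.92 against 0.70 to 1.37. Among 17 integrins and selectins, 5 were called lower and 0 higher: Itgae, Itgb8, Itgb1, Cd44 and Icam1. Itgb8, the beta 8 chain of the integrin that activates TGF-beta, was at 3.22, 3.08 and 2.55 against 4.56 to 5.45 (change -1.96 ± 0.23, adjusted p = 9.55e-05), and Itgb1 was at 0.07, 0.05 and -0.18 against 1.16 to 2.25 (change -1.83 ± 0.27, adjusted p = 0.000528).

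Of 15 secreted suppressors and effector molecules, 6 were called lower and 0 higher (2.34% and 0.687% of all genes): Fgl2, Penk, Ebi3, Gzmb, Lgals1 and Entpd1. The list median change was -0.49, and -0.89 without replicate 2. Entpd1, the ectoenzyme CD39 that degrades extracellular ATP, was at 1.73, 1.73 and 1.89 against 2.74 to 3.30 (change -1.24 ± 0.12, limma adjusted p = 8.5e-06). Gzmb, the protease granzyme B, was at -0.11, 0.55 and -0.18 against 1.11 to 3.51 (change -1.89 ± 0.36, adjusted p = 0.00616). None of the I363V arrays reached the lowest WT array in these cases.

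Among 19 costimulatory and coinhibitory receptors, 8 were called lower and 0 higher (2.34% and 0.687% of all genes). The median change was -0.59, and 5 were called lower without replicate 2. Cd83, a maturation marker, was at 2.43, 2.11 and 2.06 against 3.71 to 4.54 (change -1.90 ± 0.18, limma adjusted p = 8.5e-06). Tnfrsf9, the receptor 4-1BB, changed by -1.52, Icos by -1.34 and Pdcd1, the receptor PD-1, by -1.24. Of 11 genes of follicular helper T cells, 5 were called lower and 1 higher (2.34% and 0.687% of all genes), and 4 lower and 1 higher without replicate 2. The higher one was Il21, a cytokine that helps B cells, at -1.05, -0.50 and -1.11 against -2.37 to -1.67 (change 1.16 ± 0.20, adjusted p = 0.00254). The lower ones included Cxcr5 and Tox2 (-1.49). Helper-lineage lists gave 3 lower of 7 Th1 genes, 2 of 7 Th2 genes and 1 of 4 Th17 genes, beside 2.34% of all genes, all of them receptors (Cxcr3, Il18rap, Ccr8, Ccr4, Ccr6) except Tbx21, and 0 higher in each by limma at adjusted p over all genes.

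Of 13 genes of IL-2 and STAT5 signalling, 3 were called lower and 0 higher, against 2.34% and 0.687% of all genes: Il2rb, Il2ra and Socs2. Without replicate 2 only Il2ra was called. The naive and central T cell list of 13 genes had 1 called higher (0.687% of all genes), Dapl1 (1.04), which was not called without replicate 2 (limma adjusted p = 0.0851), and 0 lower. The list of 18 S100 proteins and galectins, which also holds annexins, had 6 called lower and 1 higher, Lgals4 (0.57), and 3 of them were called lower without replicate 2. Among 16 glycolysis and pentose phosphate genes, 3 were called lower (2.34% of all genes) and 0 higher: Tktl1, the glucose transporter Slc2a3 (-0.86) and the hexokinase Hk2 (-0.62).

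Lists of genes related to Dsp and Lypd6b held few calls beside these markers, where 3.03% of all genes were called and 0.687% were called higher. Dsp was the only gene called higher among 19 desmosome and adherens junction genes, and Dsg2, another desmosomal gene, was called lower (-0.95), with 3 of its 6 probe sets moving that way. That call was lost in 5 of the 10 fits with an array left out. Lypd6b was the only gene called among 17 Ly6 and uPAR domain genes. The cyclic nucleotide and VIP signalling list holds none of the given markers. Of its 22 genes, 3 were called higher and 0 lower (0.687% and 2.34% of all genes). These were Pde3b, Vipr1 and Gucy1b1, a subunit of soluble guanylate cyclase (1.39 ± 0.33, limma adjusted p = 0.025). Gucy1b1 was not called without replicate 2 (adjusted p = 0.186), when 2 genes of this list were called higher and 2 lower. Likewise Klrg1 was the only gene called among 15 killer cell lectin receptors.

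**Figure D4:**
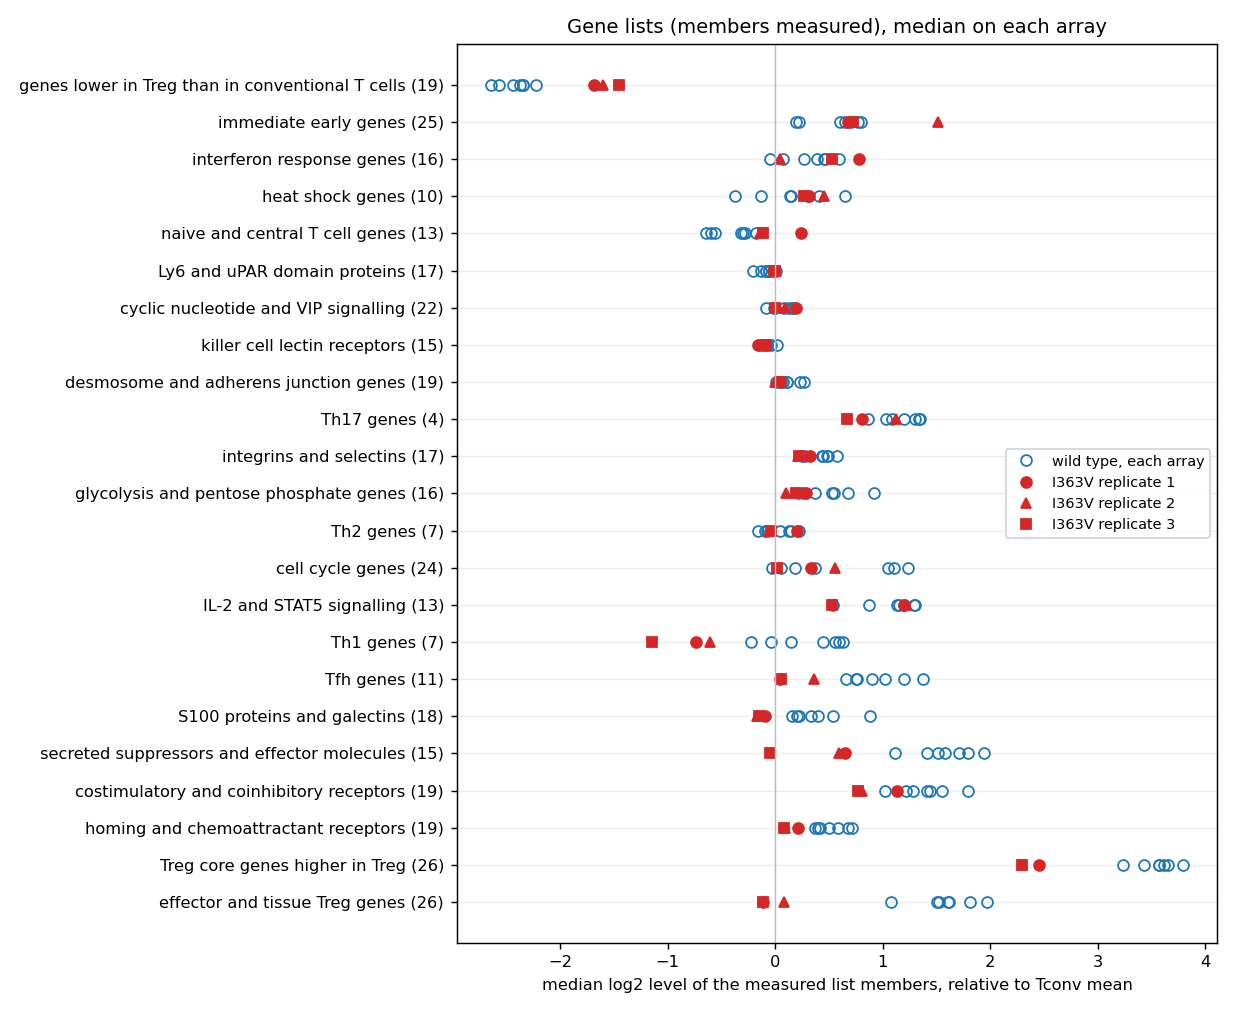
Median level of each gene list (x axis, log2 relative to the Tconv mean; measured members in brackets) on every WT array (open circles) and I363V replicate (filled red symbols), ordered by the median change. The I363V arrays lie under every WT array for the effector and tissue list (-0.11, 0.08 and -0.11 against 1.08 to 1.97) and only replicate 2 stands apart in the immediate early list (1.51).

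I363V replicate 2 differed from replicates 1 and 3 in genes induced within minutes of cell activation. Across 25 immediate early genes, 21 had their highest I363V value on that array, and the list median was 0.68, 1.51 and 0.72 on replicates 1, 2 and 3 against 0.19 to 0.80 on the WT arrays. Fosb was at 2.70, 6.01 and 1.76, Nr4a2 at 1.81, 4.88 and 1.39, and Fosl2 at -1.11, 2.52 and -1.43, where the highest WT arrays were at 2.70, 2.02 and -0.53. Apol8, which is not on that list, was at 0.01, 4.02 and 0.13, against -0.04 to 0.26 in WT cells. None of the 25 immediate early genes was called by limma at adjusted p under 0.05, 9 had an unadjusted p under 0.05, and their median change of 0.49 was 0.15 without replicate 2. Of 10 heat shock and 24 cell cycle genes, none was called in this limma fit and 1 of each list had an unadjusted p under 0.05, with median changes of 0.22 and -0.26. Of 16 interferon response genes, 2 were called higher and 0 lower (0.687% and 2.34% of all genes), the antiviral genes Oas2 (0.69) and Ifit2 (0.44), and the list median change was 0.24. Oas2 was not called without replicate 2 (adjusted p = 0.0942), and the call of Ifit2 was lost in 5 of the 10 fits with an array left out.

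Many of the genes called higher had their highest value on this array. Among the I363V arrays, 78 of the 125 higher genes were highest on replicate 2, and 54 of the 125 were still called without it. The share of all genes that were highest on it was not worked out. Leaving out replicate 1 or 3 instead kept 74 or 76 of the 125, so part of the loss came with any array left out. Of the 71 no longer called without replicate 2, 55 were highest on it, and of the 54 still called, 23 were. Leaving out the array where a rising gene is highest tends to remove its call, so this split was partly set in advance. Of the 426 lower genes, 276 were still called without replicate 2, 263 without replicate 1 and 239 without replicate 3, and 227 were lowest on replicate 3. Replicate 3 was also unlike the others. It had 41 genes at least 2 log2 units above the mean of the other I363V arrays, where replicate 2 had 16 and replicate 1 had 4. At least 2 units below, the counts were 10 for replicate 3, 12 for replicate 2 and 2 for replicate 1.

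Markers of other cell types were called between I363V and WT cells at about the share over all genes (3.03%). Of 8 B cell markers 1 was called, Cd22 (-0.98), of 9 CD8 T and NK cell markers 1, Nkg7 (-1.26; called in 4 of the 10 fits with an array left out, and with adjusted p = 0.118 without I363V replicate 2), and of 12 myeloid, 9 dendritic, 4 erythroid and 8 stromal and endothelial markers none was called by limma at adjusted p over all genes, where 1 dendritic marker and 0 of the other 3 lists had an unadjusted p under 0.05. The mean level of the myeloid list was -0.25 to -0.02 on the I363V arrays and -0.52 to 0.59 on the WT arrays. That of the dendritic list was -1.22 to -1.09 against -1.26 to -0.68, that of the B cell list -0.28 to -0.07 against -0.06 to 0.29, and that of the CD8 T and NK list -0.52 to -0.51 against -0.59 to -0.27. Only the B cell list had no overlap, with I363V arrays lower. The part of these cells in the changes above was not tested.

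I363V cells differed from A384T cells, which carry another forkhead substitution and the same reporter, in 234 genes (1.29%), of which 60 were higher (0.33%) and 174 lower (0.956%) in I363V cells. Without A384T replicate 2 the counts were 39 and 106, without I363V replicate 2 the higher genes numbered 37, and without I363V replicate 3 the lower genes numbered 113. Of the 24 most changed genes, Penk (-1.77, limma adjusted p = 0.00128), Itgae (-2.44, adjusted p = 1.42e-05) and Fgl2 (-1.79, adjusted p = 0.0319) were lower than in A384T cells. Lypd6b (1.41, adjusted p = 0.00118), Dsp (1.29, adjusted p = 0.0359) and A530021J07Rik (3.32, adjusted p = 0.000262) were higher. Gpr15 (-0.81, 95% interval -1.47 to -0.15, adjusted p = 0.373) and Klrg1 (-0.24, interval -1.03 to 0.54, adjusted p = 0.915) were not called. Against the same WT arrays, A384T cells were also called lower in Klrg1 (-3.91), S100a6 (-2.74), S100a4 (-2.42), Myo1f (-2.24), Ttc39c (-1.96) and Gcnt1 (-1.87). Gpr15 (-1.59), Tktl1 (-1.49) and Tmbim1 (-1.30) were called lower there too. Fgl2 (-1.40), Penk (-0.88) and Itgae (0.05) were not called between A384T and WT cells. R397W cells were called lower than WT cells in each of these genes, so these falls are not particular to I363V cells. Of the 26 Treg core genes 11 were lower than in A384T cells, and 5 of the 26 effector and tissue genes were lower and 1 higher.

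Some of the largest differences between these mutants were in genes that changed less against WT cells. Sytl4, a vesicle-docking protein, was at 0.14, 0.15 and 0.06 in I363V cells, 2.60, 3.07 and 2.94 in A384T cells and 0.20 to 0.92 in WT cells (I363V minus A384T -2.75 ± 0.16, limma adjusted p = 8.49e-08). Against WT cells Sytl4 was not called (-0.43, adjusted p = 0.115). Myo6, an actin motor, was at 1.86, 2.06 and 1.73 in I363V cells, -0.72, -0.94 and -0.85 in A384T cells and 0.49 to 1.51 in WT cells (difference 2.72 ± 0.23, adjusted p = 1.02e-05). Matn2, a matrix protein, was unlike these in lying far under WT cells too. It was at 0.67, 0.68 and 0.37 against 3.14, 3.74 and 3.59 in A384T cells (difference -2.92 ± 0.33, limma adjusted p = 0.000131). WT cells had 2.42 to 3.48, so I363V cells were under every WT array in Matn2 and A384T cells were not. Other genes at the ends of this comparison were Rnf144a (2.32), the kinase Sgk1 (1.82), Pxylp1 (1.70), the gelatinase Mmp9 (-2.25) and Fah, an enzyme of tyrosine breakdown (-2.17).

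I363V and R397W cells were told apart in 21 genes (0.115%), 4 higher (0.022%) and 17 lower (0.0934%) in I363V cells. R397W replicate 2 decided much of this count, since without it 47 genes were higher and 54 lower. Without I363V replicate 1 the counts were 9 and 11, without I363V replicate 2 the lower genes numbered 4, without I363V replicate 3 the higher genes numbered 11 and without R397W replicate 1 they numbered 7. None of the Treg core, effector, homing, suppressor or costimulatory list members was called in this comparison by limma, in which 1635 of all genes had an unadjusted p under 0.05. The difference was -0.11 for Penk (95% interval -0.65 to 0.44), 0.53 for Gpr15 (-0.13 to 1.19), -0.35 for Lypd6b (-0.78 to 0.08) and 0.39 for Dsp (-0.23 to 1.01). These intervals leave room for differences of up to 1.19 log2 units, so equal levels are not shown.

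The genes higher in I363V than in R397W cells were Lyz1, Lyz2, Junb and Mettl23. Lyz1, a lysozyme of myeloid cells, was at -0.08, 0.32 and 0.04 in I363V cells and -3.88, -3.09 and -3.84 in R397W cells (difference 3.70 ± 0.42, limma adjusted p = 0.00257), where WT cells had -0.94 to 1.02. Lyz2 differed by 2.36 ± 0.35 (adjusted p = 0.0119). They were 2 of 12 myeloid markers called, and the mean level of that list was -1.27 to -1.02 in R397W cells against -0.25 to -0.02 in I363V cells. The part of myeloid cells in this difference was not tested. Junb, an AP-1 subunit, was at 1.98, 2.54 and 2.61 against 0.11, -0.21 and 1.0 (difference 2.08 ± 0.38, adjusted p = 0.0416), and was the only called one of the 25 immediate early genes. Mettl23 was at 1.69, 2.18 and 1.97 in I363V cells and at most 0.71 on every A384T, R397W and WT array (I363V minus R397W 1.91 ± 0.25, adjusted p = 0.00484). The largest falls were Slfn5 (-1.49), Madd (-1.35), Dido1 (-1.27), Pus3 (-1.26) and Marveld1 (-1.24), and none of these 5 was called against WT cells in the same limma fit, with adjusted p from 0.235 to 0.935.

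**Figure D5:**
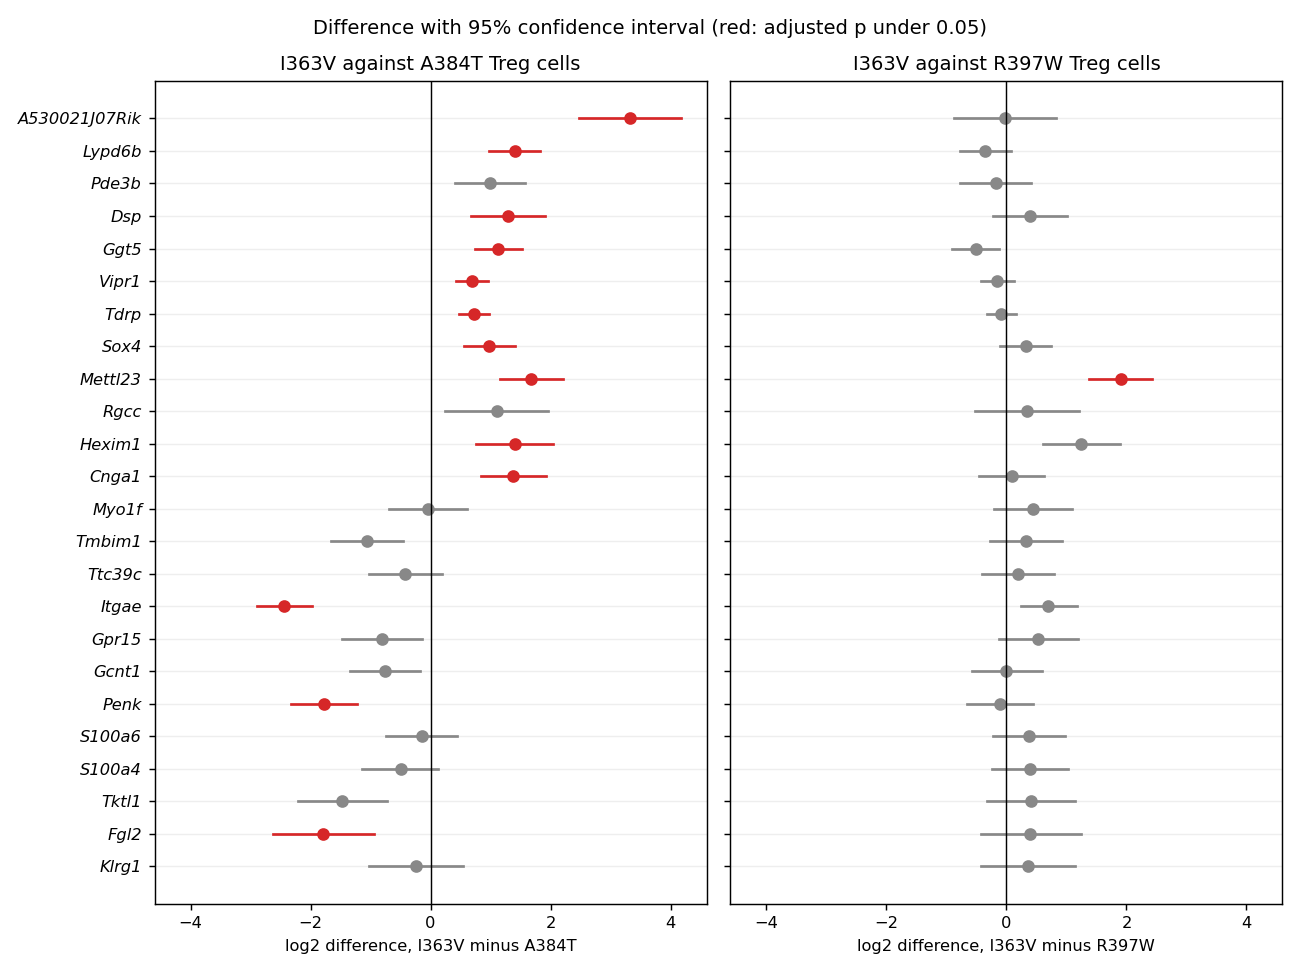
Difference of I363V from A384T (left) and from R397W (right) in log2 units (x axis) for the 12 highest and 12 lowest changes against WT (rows), with unadjusted 95% confidence intervals; red marks an adjusted p under 0.05. Itgae is lower (-2.44) and A530021J07Rik higher (3.32) than in A384T cells, and only Mettl23 (1.91) is called against R397W cells.

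Over the 10 I363V and WT arrays, the genes whose levels followed those of the markers most closely were as follows, as a description that is largely set by the difference between the groups and has no test. Penk was most like Il12rb1 (Pearson r = 0.985), a receptor subunit for IL-12 and IL-23, then Kifap3 (0.982) and Abhd4 (0.981). Gpr15 was most like Mgat5 (0.986), a glycan-branching enzyme, then Itgb1 (0.985) and Slc15a3 (0.982). Lypd6b was most like Mboat1 (0.98), Hs3st3b1 (0.978) and Cnga1 (0.977), and Dsp was most like Il1rl2 (0.988), Sos2 (0.976) and Nfe2l2 (0.97), the regulator of antioxidant genes. Sos2 was not called between the groups (0.38 ± 0.20, limma adjusted p = 0.467), and the other 11 were.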

How the data were processed

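RNA of 18 sorted samples had been hybridised to Affymetrix mouse arrays of 45101 probe sets. The values are on a log2 scale as the authors deposited them, after RMA, per the submitters' processing notes; its version is not given in the sources used here, and the log base is taken from the convention of RMA. The 2 Tconv arrays sum to at most 1e-06 at every probe set, so each probe set was centred on them and no filter on dim probe sets could be made. Scanner files and scan batches were not analysed here. The chip annotation gave 1 gene for 34945 probe sets, several for 932 and none for 9160, and 64 controls were not used. Each of the 18193 genes was represented by its probe set of largest variance over the 18 arrays; 9010 genes had several.

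Group means of 5 groups (Tconv, WT pooled over reporter and host, A384T, I363V, R397W) were fitted to all 18 arrays with limma 3.58.1 in R 4.3.3 (13 residual and 3.5 prior degrees of freedom). Pooling WT keeps the spread between reporters and hosts in the error. Tests were two-sided and moderated by eBayes, p-values were adjusted over all genes (Benjamini-Hochberg), and under 0.05 a gene is said to be called. Changes are given on the log2 scale with their SE. The fit was run on simulated data with independent noise on each array. That cannot show whether its p-values hold where arrays share animals or deviate together. Python 3.11.15 with pandas 2.3.3 and numpy 2.4.6 made the tables, and matplotlib 3.10.9 the plots.

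The members, markers and gene lists were chosen with earlier results of these data known. The text names the 4 given markers, Foxp3, the 12 highest and 12 lowest changes called without overlap, up to 4 called members of a list, the 5 highest and 5 lowest called genes against each other mutant, and the 3 genes most like each marker; any other name was chosen after its value was seen. Alternatives left out each array, cut the WT group by reporter or host, added a replicate block, and changed the probe sets, centring, filter and variance estimate.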

Additional observations from a re-analysis of the deposited data

Results flagged for a closer look

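Of 114 genes tested for an array standing apart from the others in the group of 7 WT arrays, 3 had such an array, where chance alone flags about 1 group in 20. Fah was at 2.08 on replicate 2 of the GFP cells from A384T mice, while the other WT arrays were lower. Madd was at -0.02 on replicate 2 of the GFP cells from WT mice, above the other WT arrays. Hs3st3b1 was at -3.35 on replicate 2 of the GFP cells from A384T mice, again above the others. The I363V and WT arrays did not overlap for Fah and Hs3st3b1.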

How the results depend on the processing

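Of 98 gene results with a call, each kept its direction under every alternative run. Without I363V replicate 2, 76 stayed called and 22 did not, and with only the 2 WT hCD2 arrays 46 did and 33 did not. Leaving out I363V replicate 1 or 3 kept 81 or 83 called. Against WT cells, 125 genes were higher and 426 lower. Leaving out 1 array gave 59 to 125 higher and 272 to 434 lower. The higher count was 227 with array weights, 69 with only the WT arrays of WT mice, 48 with only those of A384T mice and 22 with only the hCD2 ones, and the lower count was 237 with WT mice and 115 with the hCD2 arrays. Against A384T cells, leaving out 1 array gave 37 to 52 higher and 106 to 147 lower, only the compared arrays 36 and 112, and array weights 120 and 264. Against R397W cells, leaving out 1 array gave 5 to 47 higher and 4 to 54 lower. There the mean of all probe sets gave 2 and 2, array weights and a range of at least 1 gave 7 higher each, and only the compared arrays gave 0 lower (limma, 1008 genes at unadjusted p under 0.05). Arrays of equal replicate number did not deviate together (correlations with I363V of 0.26, -0.29, -0.18, -0.01, -0.33 and -0.10 for WT, -0.32, 0.07 and -0.06 for A384T and 0.04, 0.34 and 0.01 for R397W), so the numbers did not pair the I363V arrays with others. A384T arrays and WT arrays of A384T mice, 3 of the 7 WT arrays, did deviate together by number (0.69, 0.65 and 0.58), so these WT arrays are not independent of the A384T arrays in the fit, and the counts without them are those given for the WT arrays of WT mice. In WT mice, GFP replicate 1 and hCD2 replicate 3 had like correlations with I363V replicates 1, 2 and 3. These were 0.26, 0.18 and -0.33 for GFP and 0.29, 0.15 and -0.33 for hCD2. Tconv replicate 1 had 0.26, 0.18 and -0.34. Whether these GFP, hCD2 and Tconv arrays belong together was not tested directly. The fit takes them as independent, also in the counts of WT against Tconv cells. With the numbers as a replicate block, 76 genes were higher and 285 lower than in WT cells, 6 and 23 against A384T cells, and 1 and 0 against R397W cells (limma, 1342 at unadjusted p under 0.05). Since the numbers did not pair the I363V arrays with others, these counts do not check for a pairing of arrays. Against WT cells, hCD2 replicate 4 was alone in its block and so did not inform that count.

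Changes from WT that were not called turned sign for 8 genes. H2-Aa became 0.02 with the WT arrays of A384T mice, where Bhlhe40 became -0.11 and Lyz1 0.47. Array weights gave -0.10 for Bhlhe40 and 0.13 for Slfn5. The WT hCD2 arrays gave -0.03 for Ikzf3, -0.29 for Lyz2 and 0.04 for Slfn5, and the WT arrays of WT mice -0.27 for Ikzf3 and -0.22 for Lyz2. The mean of probe sets gave -0.16 for Ikzf3, 0.10 for Dido1 and 0.09 for Pus3. Leaving out 1 array gave -0.65 to 0.63 for Bhlhe40, with the lowest without I363V replicate 2, -0.53 to 0.50 for Ikzf3, -0.32 to 0.01 for Lyz1, -0.07 to 0.22 for Lyz2 and -0.43 to 0.19 for Slfn5. The cause was not tested.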

Other observations

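The I363V arrays differed among themselves at a run of neighbouring genes beside Mettl23, chosen after their values were seen. In the RefSeq gene order, Snhg16, St6galnac2, BC018473 and St6galnac1 follow each other among the genes measured. St6galnac2 was at 3.72, -0.04 and 2.08 on I363V replicates 1, 2 and 3, BC018473 at 4.36, 0.18 and 2.68, St6galnac1 at 1.84, -0.21 and 0.91, and Snhg16 at 0.87, 0.01 and 0.79. The 7 WT arrays were at most at 0.16 for St6galnac2, 0.29 for BC018473, 0.08 for St6galnac1 and 0.09 for Snhg16, and the 8 arrays of the other groups at most at 0.15, 0.23, 0.16 and 0.64. Replicates 1 and 3 were thus above every other array for these genes and replicate 2 was not, while Mettl23 was high on all 3. Of the 10 measured genes on each side of Mettl23, 3 were called against WT cells by limma: Snhg16, St6galnac2 and BC018473.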
